A study of Drosophila melanogaster with 2 samples.

Results

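The 10 genes described here set the pace of the Drosophila cell cycle: the Cdc25 phosphatases stg (string) and twe (twine), the cyclins CycA, CycB and CycE, the mitotic kinase Cdk1, the activators fzy and fzr of the anaphase-promoting complex, and the inhibitors Rbf and dap. They were chosen by name, and they are 10 of 13945 annotated coding genes. A region was assigned to a gene if its summit, the position of highest signal, lay within the gene span extended by 5000 bp on each side. By this rule 16 of the 4222 peaks in the pooled list lay at these genes. The study measured where a Snail-eGFP fusion lay on the genome, by chromatin immunoprecipitation and sequencing of whole fly embryos. All embryos were of the transgenic strain sna-GFP, an insertion targeting D. melanogaster sna, and were collected over 0 to 24 h of development, so each sample mixes many stages and tissues. There was 1 group with 2 biological replicates, and chromatin was precipitated with an antibody against GFP, per the labels' description, while their antibody field names sna. Control samples were not analysed here, so each region is described as the authors deposited it.

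As background, Cdk1 bound to cyclin A or cyclin B drives mitosis once Cdc25 removes an inhibitory phosphate, and in the fly embryo after cellularisation the pulses of stg transcription time each division. Cyclin E with Cdk2 starts DNA replication, dap blocks that kinase, and Rbf holds back the E2F transcription factors. The anaphase-promoting complex, with fzy in mitosis and fzr afterwards, marks the mitotic cyclins for destruction. Snail is a zinc-finger repressor of the presumptive mesoderm, and proteins of the Snail family are also known to be needed for normal stg expression in neuroblasts.

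The authors' lists come at 2 levels. Candidates are all ranked regions, and peaks are the regions kept at an irreproducible discovery rate (IDR, a measure of how well a rank repeats) of 0.01, that is a −log10 IDR of 2 or more. On the main arms 139 candidates at this limit were not among the peaks, 0 of them at these genes. The signal of a region is the authors' value on a scale that the sources used here do not give, so signals are compared only within a list, and across lists only as percentiles. The files hold no read counts, so depth is unknown and no interval can be put on a value. The pooled list held 4222 peaks and 106694 candidates. Replicate 1 had 2876 peaks and 46960 candidates, and replicate 2 had 2225 peaks and 103224 candidates. Of the pooled peaks on the 6 main arms, 44.4% were also in both replicates' own lists of peaks and 26.0% were in neither. No result below is a test, since there is 1 group.

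Peaks lay near 8 of the 10 genes, and mostly beside a neighbouring gene. Only CycA, CycB and dap had a peak to which their own start site was the nearest, and Cdk1 and fzr had no pooled peak. Among all coding genes, 52.7% had a peak by the same rule and 22.2% were the gene nearest to one, so 3 of 10 is close to that background. The span of these genes had a median of 3955.5 bp against 2166 bp over all coding genes, and the part of length in the counts was not tested. Of the 16 peaks, 11 lay past the 3′ end of the gene they were assigned to, 2 lay more than 2 kb upstream of it, and 3 lay at its start site. Only the dap summit fell inside the span of its gene. Signals ran from 3.96 to 427 with a median of 138, against a median of 109 over all 4221 peaks on the main arms. Of all 178 pooled candidates at these genes 8.99% were peaks, against 3.99% of candidates on the main arms. The latter share covers whole arms and not only windows around genes, and the share over the windows of all coding genes was not taken.

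**Figure D1:**
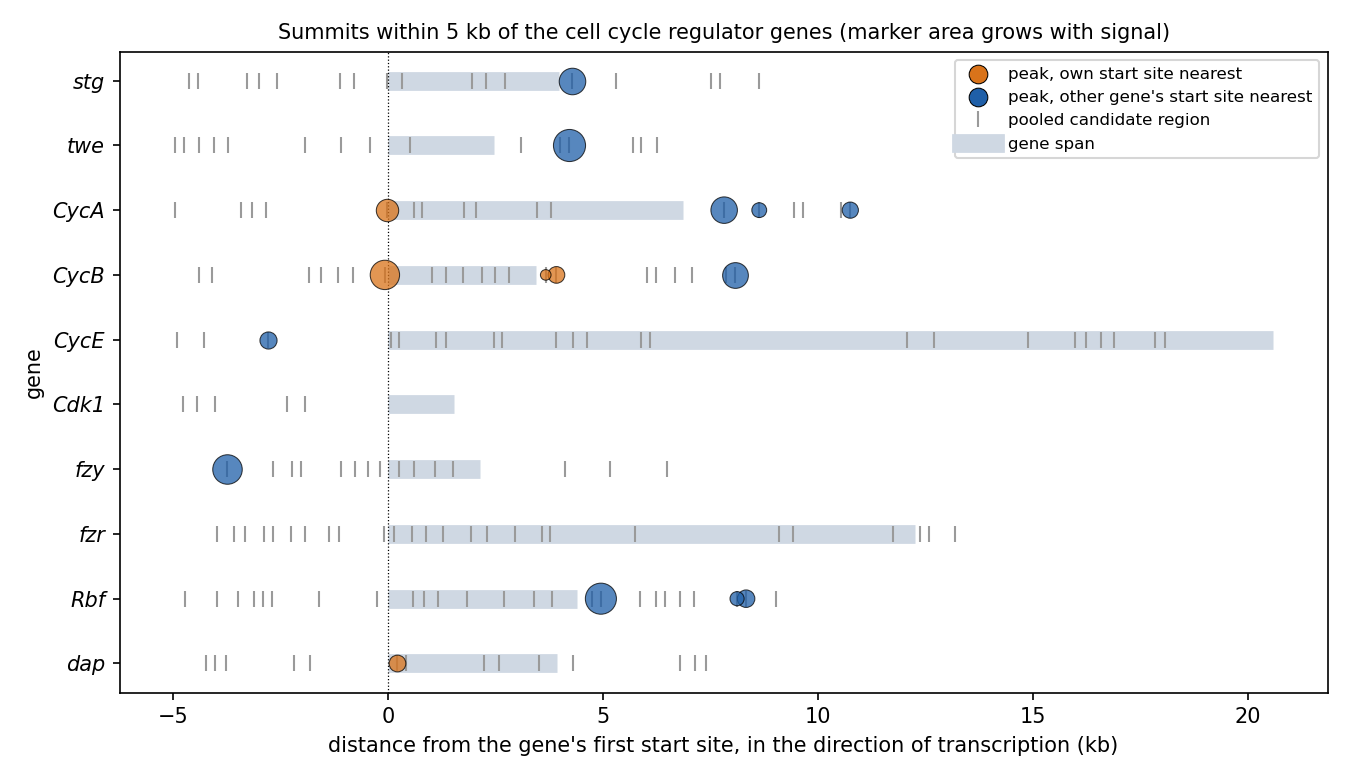
Summits of the pooled list at the 10 genes, by distance in kb from the most upstream start site in the direction of transcription. Grey bars are gene spans, ticks are candidates, and circles are peaks with an area that grows with signal, orange where the gene's own start site is nearest (5 peaks) and blue where another gene's is (11 peaks). Most large circles lie to the right of the grey bars, past the 3′ ends.

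**Figure D2:**
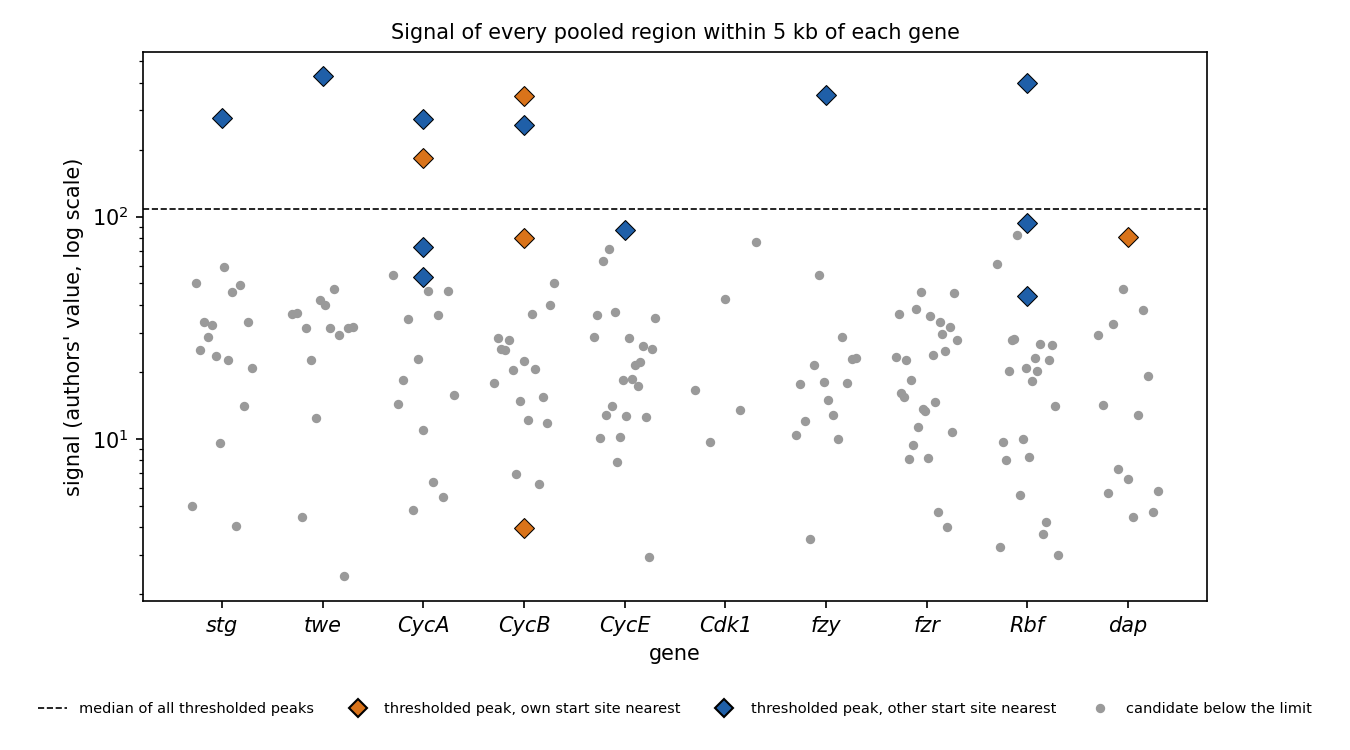
Signal (authors' value, log scale) of every pooled region at the 10 genes. Diamonds are peaks, grey points are candidates below the IDR limit, and the dashed line is the median of 109 over all peaks. Cdk1 and fzr have grey points only, and 8 of the 16 diamonds lie above the line.

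The Cdc25 genes each had 1 strong peak, in neither case at the gene's own promoter. The stg gene (FBgn0003525, chromosome arm 3R from 29251826 to 29255800, minus strand, dm6) encodes the phosphatase that triggers the zygotic divisions. Its peak, at 29251440 to 29251597, was intergenic, with the summit 301 bp past the 3′ end of stg and 1074 bp upstream of the start of SP1029, the nearest one. It had a signal of 277 in the pooled list (rank 425 of 4222), 175 in replicate 1 and 103 in replicate 2, and was a peak in both replicates. A region at the stg promoter itself had a signal of 59.2. It lay inside the gene, 147 bp upstream of the nearer of its 2 annotated starts and 328 bp past the first. This region was a peak of the replicate-pair list only. Its −log10 IDR in the pooled list was 1.46, and its signals of 42.8 in replicate 1 and 33.6 in replicate 2 were below the limit in both. The twe gene (FBgn0002673, 2L from 16259414 to 16261877, minus strand) encodes the Cdc25 of meiosis and the germline. The peak assigned to it, at 16257504 to 16257828, was the strongest of the 16, with a signal of 427 (rank 118). Its signal was 259 in replicate 1 and 153 in replicate 2, a peak in both. That summit lay 25 bp upstream of EndoGI, which encodes an inhibitor of the EndoG nuclease, in the 81 bp between the divergent starts of EndoGI and PRL-1, a phosphatase gene, and 4101 bp from the nearest start of twe. Within 500 bp of a twe start the strongest pooled candidate had a signal of 40.2, 429 bp upstream, and lay nearer to the start of CG4935, at 165 bp. The strongest of replicate 1 there had 37.0, and that of replicate 2, at 26.0, was another region, 464 bp past a start.

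The reference sequence around the summits is shown for these and 4 further peaks to let the letters CGATA be seen in place. All 6 were picked with their letters known, and other strong peaks, such as those beside Rbf and blw, hold no such letters. Each is the part of the 201 bp around the summit that holds no annotated exon, on the plus strand of dm6 (Release 6), 5′ to 3′, and capitals mark CGATA, its reverse complement TATCG, or both where they overlap. The stg sequence is chr3R:29251425-29251625, and that between EndoGI and PRL-1 is chr2L:16257607-16257687.
stg downstream: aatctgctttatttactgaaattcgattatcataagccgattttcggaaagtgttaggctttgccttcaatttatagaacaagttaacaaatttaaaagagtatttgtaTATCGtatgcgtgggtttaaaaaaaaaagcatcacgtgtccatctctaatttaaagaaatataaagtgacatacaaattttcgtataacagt
EndoGI and PRL-1, beside twe: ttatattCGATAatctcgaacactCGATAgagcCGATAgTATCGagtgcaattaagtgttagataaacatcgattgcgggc
The stg sequence held these letters at 1 place, 11 bp from the summit, and 28.9% of its bases were G or C. The short stretch beside twe held 4 of the 5 copies found in the full window.

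CycA had 4 peaks, 1 at its own promoter and 3 on the side of its 3′ neighbours. It encodes a mitotic cyclin that acts with Cdk1 (FBgn0000404, 3L from 11826719 to 11833578, minus strand). The promoter peak, at 11833346 to 11833861 with the summit 26 bp upstream of the start, had a signal of 183 (rank 973), 120 in replicate 1 and 57.7 in replicate 2, and was a peak in both. A stronger peak, at 11825641 to 11825902, lay 955 bp past the 3′ end of CycA and 32 bp upstream of CG32095. Its signals were 276 in the pooled list, 174 in replicate 1 and 102 in replicate 2, again a peak in both. The 2 others were weaker and did not repeat in both replicates. The peak 21 bp upstream of RpL10Ab, a ribosomal protein gene, had a signal of 73.0 and was a peak in replicate 1 only, with 59.9 there and 35.4 in replicate 2. A peak in a coding exon of CG32095 had a signal of 53.6, a −log10 IDR of 2.01 at the limit, and was a peak in neither replicate, at 22.1 and 25.1.

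The exon-free sequences at 3 of these peaks, with capitals as above, are chr3L:11833579-11833704 at the CycA promoter, chr3L:11825733-11825864 beside CG32095 and chr3L:11822730-11822850 beside RpL10Ab.
CycA promoter: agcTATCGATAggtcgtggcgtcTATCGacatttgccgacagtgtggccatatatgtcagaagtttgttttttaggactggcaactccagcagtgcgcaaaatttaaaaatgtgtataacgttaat
CG32095, beside CycA: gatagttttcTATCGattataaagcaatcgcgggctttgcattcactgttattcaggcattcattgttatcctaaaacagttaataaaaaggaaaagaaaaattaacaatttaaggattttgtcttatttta
RpL10Ab, beside CycA: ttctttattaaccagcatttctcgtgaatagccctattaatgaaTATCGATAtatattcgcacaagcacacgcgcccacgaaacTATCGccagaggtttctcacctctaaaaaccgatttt
The palindrome TATCGATA, known as the core of the site bound by the replication-related factor DREF, was present at the CycA promoter and beside RpL10Ab.

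CycB, which encodes the other main mitotic cyclin, had the strongest peak at an own start site (FBgn0000405, 2R from 22803521 to 22806948, minus strand). That peak, at 22806886 to 22807167 with the summit 77 bp upstream of the start, had a signal of 349 (rank 218), 219 in replicate 1 and 137 in replicate 2. It was a peak in both replicates. The next was 215 bp upstream of blw, which encodes the ATP synthase alpha subunit, and 4637 bp past the 3′ end of CycB. It had signals of 257, 150 in replicate 1 and 88.1 in replicate 2, and was a peak in both. Overlapping peaks with signals of 80.4 and 3.96 lay 486 and 237 bp past the 3′ end, at −log10 IDR values of 2.27 each. They matched the same replicate candidates, with 42.2 in replicate 1 and 45.1 in replicate 2, below the limit in both. CycB was thus their nearest start, at 3268 and 3019 bp, but only the promoter peak lay within 500 bp of it.

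Neither CycE nor Cdk1 had a pooled peak at its own start. CycE, the S-phase cyclin gene, spans 20570 bp (FBgn0010382, 2L from 15727581 to 15748150, minus strand) and held 23 candidates, none of them a peak inside the span. Its peak, at 15750693 to 15751208, lay 2801 bp upstream of CycE and 127 bp into ND-B17, a gene for a subunit of respiratory complex I. The signal was 87.4 (rank 2840), with 50.2 in replicate 1 and 49.7 in replicate 2, a peak in neither. At the starts of CycE itself lay candidates with signals of 71.4 and 63.1, at −log10 IDR values of 1.47 and 1.55. The stronger, 198 bp upstream of a CycE start, had 38.9 in replicate 1 and 30.3 in replicate 2, below the limit in both. Cdk1 (FBgn0004106, 2L from 10384739 to 10386262, minus strand) is the shortest of the 10 genes at 1524 bp and had the fewest candidates, 5, none of which had the Cdk1 start as the nearest. The strongest, with a signal of 77.0 and a −log10 IDR of 1.15, lay 86 bp into da, which encodes a broadly expressed bHLH protein. Only the replicate-pair list held a peak in the Cdk1 region, with a signal of 79.8, 4467 bp past the 3′ end and 169 bp into gny. No candidate of the pooled list or of replicate 1 lay within 500 bp of the Cdk1 start, and that of replicate 2 had a signal of 13.1.

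Of the activators of the anaphase-promoting complex, fzy had a strong peak upstream and fzr had none in the pooled list. The fzy gene is the fly Cdc20 (FBgn0001086, 2L from 16310956 to 16313097, plus strand). Its peak, at 16307085 to 16307364, lay 3745 bp upstream of the fzy start and 87 bp into CG5861, beside the divergent start of Syx5, a Golgi SNARE gene. Signals were 353 in the pooled list (rank 214), 230.4 in replicate 1 and 139 in replicate 2, a peak in both. Within 500 bp of the fzy start the strongest pooled candidate had a signal of 54.3 and a −log10 IDR of 0.195, and lay 251 bp into cni, its nearest gene. The strongest there in the replicates were other regions, with 28.3 in replicate 1 and 16.1 in replicate 2. The fzr gene, the fly Cdh1 (FBgn0262699, X from 4667290 to 4679537, minus strand), had the most candidates, 26, of which 19 had its own start as the nearest. The strongest had a signal of 45.7 and a −log10 IDR of 1.38, and lay 129 bp past the start site. In replicate 1 a peak with a signal of 72.9 fell within the fzr region, in an intron of the phosphatase gene Pp2C1, 4979 bp upstream of fzr. An overlapping peak of replicate 2, whose signal was 74.1 and whose summit lay 281 bp away, was outside the limit of 5000 bp. The pooled peak at that place, with a signal of 149, was also just outside, with its summit 5141 bp from the span. Among pooled peaks the farthest inside the limit was that beside blw at 4637 bp.

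Rbf, the fly retinoblastoma gene, had 3 peaks, all on the side of its 3′ neighbour CG16989 (FBgn0015799, X from 797090 to 801479, minus strand). The strongest, at 796387 to 796722, lay inside CG16989, in its 3′ UTR, and 558 bp past the 3′ end of the convergent Rbf. It had a signal of 397 (rank 152), 238 in replicate 1 and 154 in replicate 2, and was a peak in both. Overlapping peaks with signals of 93.4 and 44.0 lay 8 and 218 bp into CG16989. They matched the same replicate candidates, with 65.8 in replicate 1 and 46.3 in replicate 2, a peak in replicate 1 only. At the promoter of Rbf, 113 bp upstream, replicate 2 alone had a peak, with a signal of 41.6 and a −log10 IDR of 2.03. The strongest pooled candidate within 500 bp of the Rbf start had a signal of 83.0 and a −log10 IDR of 0.177. The exon-free sequence before the start of CG16989, chrX:793055-793146 with capitals as above, also held GGTCACACT, in lower case here.
CG16989, beside Rbf: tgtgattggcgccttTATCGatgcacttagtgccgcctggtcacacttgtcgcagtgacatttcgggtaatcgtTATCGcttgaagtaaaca

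The other inhibitor gene, dap, encodes a p21/p27-type inhibitor of cyclin E/Cdk2 (FBgn0010316, 2R from 9712321 to 9716256, plus strand). Its peak, at 9712260 to 9712775, had its summit 197 bp past the own start site. The signal was 81.2 (rank 3087), with 42.4 in replicate 1 and 31.4 in replicate 2, and the −log10 IDR was 2.17. It was a peak in neither replicate and was missing from the replicate-pair list.

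At these genes the replicates repeated the strong peaks and not the weak ones. Of the 16 peaks, 8 were in both replicates' own lists, 3 in replicate 1 only, 0 in replicate 2 only and 5 in neither. The 8 in both had pooled signals of 183 to 427, and the other 8 had 3.96 to 93.4. The pooled signal and the replicate lists come from the same reads. Whether signals divide in this way over all peaks was not tested. Peak width ran with this. The most frequent width was 516 bp, shared by 79.8% of all peaks, and 9 of the 16 peaks had it, of which 1, at the CycA promoter, was in both replicates. The other 7, narrower than 516 bp, had signals of 257 to 427 and were in both. Over all main-arm peaks 30.9% of those 516 bp wide and 97.9% of the narrower ones were in both, so this tendency was general. The division was less clean there. Peaks 516 bp wide reached a signal of 285, and narrower ones went down to 12.5. Of the 1876 peaks in both, 1040 were 516 bp wide. The replicate 1 list had a peak at 7 of the 10 genes, against 45% of coding genes, and an own start nearest at CycA and CycB, against 17%. Replicate 2 had 6 of 10 against 36.7%, and an own start nearest at CycA, CycB and Rbf against 13.1%. In the replicate-pair list 8 of 10 had a peak against 49.9%, with Cdk1 in and dap out, and stg, CycA and CycB had the own start nearest against 20.3%. CycA and CycB were thus the genes with an own start nearest to a peak in each of the 4 lists.

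**Figure D3:**
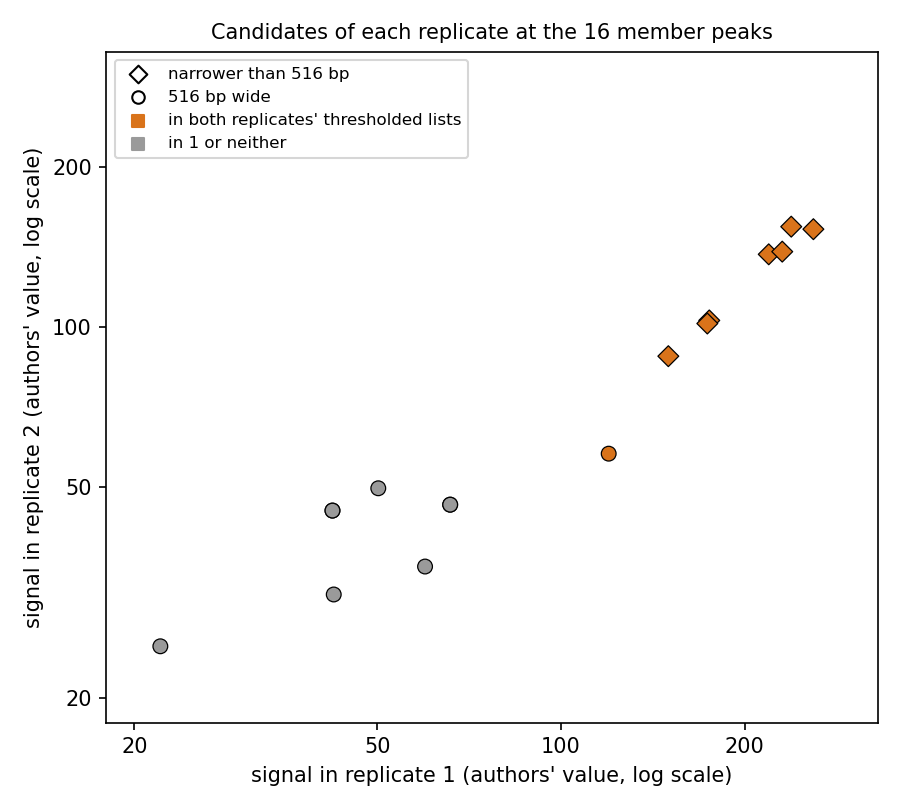
Signal of the matching candidate in replicate 1 (x) and replicate 2 (y), both authors' values on log scales, at the 16 pooled peaks. Diamonds are narrower than 516 bp, circles are 516 bp wide, and orange marks peaks of both replicates' own lists. Overlapping peaks at CycB and at Rbf share a point, so 14 points show, and the orange ones are the 8 highest on both axes.

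At the genes' own promoters, taken as the strongest candidate within 500 bp of any own start site whether or not it was a peak, CycB and CycA stood highest. The region can differ between lists, and that of twe and of fzy in the pooled list lay nearer to another gene. The CycB promoter was at the 97.7 percentile of all coding genes in the pooled list, 98.1 in replicate 1 and 96.9 in replicate 2, with genes that have no candidate ranked lowest. CycA was at 90.0, 91.6 and 84.7. Next came Rbf at 74.7, dap at 73.9 and CycE at 70.1 in the pooled list, with signals of 83.0, 81.2 and 71.4. The order of these differed between the lists, with stg between Rbf and dap in each replicate: in replicate 1 Rbf was at 71.3, stg at 71.0 and dap at 70.7, and in replicate 2 Rbf was at 76.3, stg at 69.6 and dap at 67.1. Below them in the pooled list lay stg at 64.3, fzy at 61.8, fzr at 56.1 and twe at 52.0. Cdk1 had none and was at 37.1 in replicate 2. The median signal of the 9 genes with a pooled promoter candidate was 71.4, against 55.0 over the 75.8% of coding genes that had one. In replicate 1 64.5% of coding genes had one and in replicate 2 75.5%, so the percentiles of the lists start from unlike floors.

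**Figure D4:**
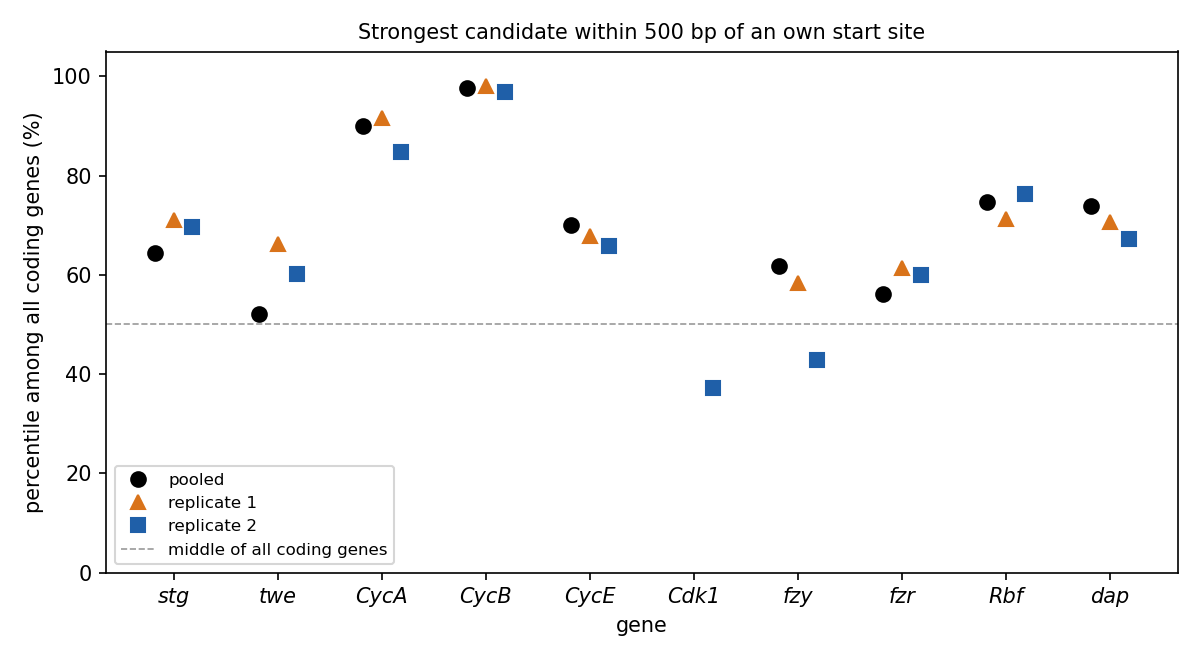
Percentile among all coding genes of the strongest candidate within 500 bp of an own start site, for the pooled list and each replicate. CycB and CycA lie at 84.7 or above in all 3 lists, and Cdk1 shows in replicate 2 only. The dashed line is the middle of all coding genes, those without a candidate included.

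Of the 11 peaks with another gene's start as the nearest, 8 lay at the promoter of that neighbour. Of the 16 peaks 11 (68.8%) were within 500 bp of some annotated start, against 84.6% of all peaks. The windows held starts of 28 other coding genes, and 9 of these (32.1%) had a peak within 500 bp: EndoGI, PRL-1, CG32095, RpL10Ab, blw, ND-B17, CG5861, Syx5 and CG16989. The same held for 3 of the 10 cell cycle genes and for 27.5% of all coding genes. The peaks outside promoters were those past the 3′ ends of stg, CycB and Rbf and that in the exon of CG32095.

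Among 8 sequence motifs looked for on either strand in the 201 bp centred on each summit, CGATA, known as the letters bound by the insulator protein BEAF-32, was the most frequent. It occurred at 11 of the 16 peaks, against 55.1% of all peaks and 37.1% of windows of the same width around coding start sites. These shares depend on peak width. Of the 7 peaks narrower than 516 bp, 5 held it, against 90.2% of all such peaks. Of the 9 that were 516 bp wide, 6 held it, against 46.2%. Copies were most numerous beside twe and at the CycB promoter, with 5 each. It was not found at the peaks in the 3′ UTR beside Rbf, upstream of blw, at CycE and at dap, nor at the weaker of the overlapping CycB peaks. TATCGATA, which contains CGATA, occurred at 3 peaks (17.7% of all peaks), the third being that upstream of fzy. CAGGTG, the core of the Snail E-box, was found at 0 of 16 peaks, against 6.44% of all peaks and 6.67% of start windows, and CAGGTA, the core letters of the site bound by the early activator Zelda, was at 0 against 4.60%. GAGAG occurred at 1 peak, 516 bp wide, against 29.2% of all peaks. Its share was 33.1% of all peaks of that width and 13.9% of the narrower ones. GGTCACACT occurred at the CycB promoter and in the CG16989 sequence shown above, against 3.96% of all peaks. TTTGGCGC and TTTCCCGC, which match the E2F site, were at 0 peaks, against 2.23% and 1.16%. Around the 17 annotated starts of the 10 genes CGATA lay at 4 (stg, CycA and CycB), against 37.1% of coding start windows. GAGAG lay at 5 (CycB, CycE and dap) against 25.0%, and TTTGGCGC at 3 (stg, CycE and CycB) against 1.57%. At 1 start each lay CAGGTG (twe, against 6.67%), TATCGATA (CycA, against 6.45%) and GGTCACACT (fzy, against 4.42%).

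A list of 59 other cell cycle genes gave the wider pathway. Of these, 47 (79.7%) had a pooled peak, against 52.7% of coding genes, and 31 (52.5%) were the gene nearest to a peak, against 22.2%. The roles below hold 4 to 11 genes each, and whether any role differs from these shares was not tested. Of the 59 genes, 37 (62.7%) had a peak within 500 bp of an own start, against 27.5% of coding genes. Over the 47 genes with a pooled peak, at the own start or not, the strongest peak had a median signal of 169. That was close to the 164 of all coding genes with a peak and below the 313 of the 8 cell cycle regulators with a peak. Of these 8, CycB and dap had their strongest peak at the own start. All 5 ubiquitin ligase genes were the nearest gene to a peak, led by Cul1 at 265, SkpA at 237 and l(2)dtl at 226, where Alg3 was nearest and the peak at its own start had a signal of 10.3. All 8 genes of E2F, Dp and the dREAM complex, among them the Rbf paralogue Rbf2, had a peak and 6 were nearest to one. The highest was mip120 at 318, followed by mip40 at 210.5 and mip130 at 187, the last 2 nearest to Fkbp12 and Edem1. Of 9 spindle checkpoint and chromatid separation genes 8 had a peak, led by Bub3 at 306, BubR1 at 261 and Sse at 200.2, and pim had none. Subunits and regulators of the anaphase-promoting complex, on which fzy and fzr act, had a peak in 7 of 11 cases, with shtd at 376, mr at 286 and APC4 at 222. The nearest starts to the last 2 were those of CG3065 and HP1b, and mr also had a peak of 212 at its own start.

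Cyclins and cyclin-dependent kinases other than the 4 above had a peak in 7 of 10 cases and an own start nearest in 3. CycG was at 264, with RpL6 nearest, Cdk2 was at 249, 78 bp upstream of its own start, and CycJ was at 227, with CG14971 nearest, while Cks30A, CycB3 and CycD had none. In the mitotic kinase group, where Incenp is not itself a kinase, 3 of 4 genes had a peak. The peak 122 bp upstream of aurA, the Aurora A gene, had a signal of 547, Incenp was at 169, with Br140 nearest, polo was at 167, and aurB had none. Of 5 genes of S-phase entry, geminin was at 297, PCNA at 110.2 and dup at 91.2, the last with SRPK nearest, and Cdc6 had none. Genes of checkpoints and of Cdk1 control had a peak in 5 of 7 cases. The peak of grp, the Chk1 kinase, was at 285, with grp and squ tied as the nearest. Next came lok at 194, with vls nearest, and trbl at 116, while Myt1 and mei-41 had none. The product of trbl is known to lower stg protein in the invaginating mesoderm, and its peak lay 92 bp upstream of its own start.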

How the data were processed

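The deposited files are narrowPeak lists with dm6 coordinates, per the labels. Neither aligner nor peak caller is given in the sources used here. Signal values are the authors' own, and the IDR values are the authors' deposited −log10 values. Of the authors' lists, the pooled, replicate 1, replicate 2 and replicate-pair thresholded lists and the first 3 as ranked lists were used. The ranked replicate-pair list was not used. Chromatin was sheared to 200 to 800 bp, per the labels.

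Gene models were those of Ensembl release 115, whose spans of the 10 genes equal those of RefSeq, and sequence came from the NCBI copy of Release 6. A promoter was 500 bp to each side of a start site, and overlap was 1 bp or more. Nearest starts were taken over all annotated genes. Scripts ran in Python 3.11.15 with pandas 2.3.3 and were tested on simulated data. No statistical test was run. The genes, the list of 59 others and the motifs were chosen with earlier results of these data known. Named are the 10 genes, the gene nearest to each of their peaks, and per role up to 3 other genes with the strongest peak plus those without one where they are 3 or fewer. Genes named beside a promoter shared with the nearest one (PRL-1, Syx5), beside a candidate or a peak of another list (da, gny, Pp2C1, cni, CG4935), or as the nearest to a peak of another cell cycle gene (such as Alg3, RpL6, Fkbp12 and Edem1) fall outside that rule and were picked once their values had been seen. Alternative lists, extensions, widths and windows were tried, and the closing section gives their effect.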

Additional observations from a re-analysis of the deposited data

How the results depend on the processing

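No paired analysis was possible because there is 1 group. Counts followed the reach given to a gene most of all. With no extension in place of 5000 bp, 1 of the 10 genes had a peak in place of 8, 1 in place of 3 was nearest to one, 1 peak in place of 16 was assigned, 1 in place of 11 was at a promoter, 0 in place of 8 were in both replicates, and 20 in place of 47 other cell cycle genes had a peak. With 1000 bp, 5 genes had a peak, and 8 peaks were assigned, 4 at promoters and 5 in both replicates. Of the peaks above the median signal, 8 were assigned and 6 were at promoters. With 10000 bp, 9 genes and 21 peaks were counted, fzr gaining 4 peaks. Leaving out 1 replicate, that is using the other's own list, gave 6 to 7 genes with a peak, 2 to 3 nearest to one, 10 to 11 peaks, 8 at promoters in each, and 36 to 43 other genes, and the lower value of 10 peaks came without replicate 1. The other settings (replicate-pair list, merged peaks, promoter widths, overlap rules, motif windows, starts of coding genes only) kept each of these counts over all genes within 1.5 times. Counts for single genes moved more, in 31 of 80 comparisons with the main setting, and in the replicate-pair list stg had 2 peaks in place of 1, Cdk1 had 1 in place of 0 and dap had 0 in place of 1. CAGGTG stayed at 0 peaks in all of its settings. CGATA ranged from 8 to 12 peaks over its windows. With 2 replicates, no read counts and no control samples in use, a gene without a peak is one where none was called, not one shown to lack signal.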

Other observations

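Beyond the distance limit of 5000 bp the pooled list held further strong peaks beside fzr and twe. At fzr, besides the summit at 5141 bp, peaks lay 7394 bp from the span with a signal of 135, 28 bp upstream of Pp2C1, and 8374 bp from it with a signal of 158, 111 bp into ctp, a dynein light chain gene. A peak of 11.0 overlapped the nearest one. At twe a peak with a signal of 307 lay 7766 bp from the span, 140 bp past a start shared by CG46309 and PRL-1. None of these had the start of fzr or twe as the nearest, and these genes were named after their values were seen.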
